A study of Mus musculus with 12 samples.

Results

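The clustered replication-dependent histone genes of the mouse encode the core histones H2A, H2B, H3 and H4 and the linker histone H1. They were taken as every gene whose symbol begins with Hist1h, Hist2h, Hist3h or Hist4h in the 2 deposited gene tables, which gave 69 of 24444 genes. By protein class they were 6 H1, 19 H2A, 19 H2B, 12 H3 and 13 H4 genes, and by cluster 55 Hist1, 10 Hist2, 3 Hist3 and 1 Hist4 genes. They were measured by RNA sequencing of bone marrow from C57BL/6 mice in 12 libraries, 3 in each of 4 groups. The aged_WT group (replicates 1, 6 and 7) came from Hopx-wildtype mice and the aged_KO group (replicates 3, 9 and 10) from Hopx-knockout mice, both with a labelled age of 18 weeks and without MN1. The MN1_WT group (replicates 2, 3 and 4) was Hopx-wildtype with MN1 overexpression, and the MN1_KO group (replicates 5, 7 and 8) Hopx-knockout with MN1 overexpression, both with a labelled age of 16 weeks. How MN1 was overexpressed, in which cells, the design of the Hopx knockout allele and the sex of the mice were not given in the sources used here, nor was it stated that each library came from a separate animal, so p-values measure the spread between these libraries, which may in part be technical.

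Cells make the replication-dependent histones in S phase, when new DNA has to be packed into nucleosomes. Their genes lie in clusters, have almost no introns and are transcribed with the help of the coactivator NPAT. Their messenger RNAs (mRNAs) end in a conserved stem-loop bound by the protein SLBP in place of a poly(A) tail, and they are degraded when replication stops. Some of these genes also give rise to polyadenylated transcripts, as described for Hist1h1c, Hist1h2bc and Hist2h2be, mainly in cells that have left the cell cycle. The libraries were made with a TruSeq Stranded mRNA kit, which selects polyadenylated RNA, so the values below count those histone transcripts that passed this selection. How the selection acted on stem-loop and polyadenylated forms was not tested.

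The stem-loop is shown because it sets these transcripts apart from other mRNAs. In the GENCODE M21 annotation of GRCm38 (the assembly also called mm10), 67 members had a coding transcript. A script searched the first 100 bases after their stop codons for the histone stem-loop pattern of 6 stem bases, 4 loop bases and 6 stem bases, on the transcript strand only. The pattern was present in 46 of these 67 members, 68.7%, and in 2 of 22433 other coding genes, 0.009%. It began 21 to 58 bases after the stop codon, with a median of 31. Of the coding members, 15 had annotated transcripts that ended under 20 bases after the stop codon, so that no match could be found there. The 3 most frequent forms are given 5′ to 3′, with the paired stem in capitals and the loop in lower case.
Stem-loop of 26 members (3 H1, 10 H2A, 8 H2B and 5 H3): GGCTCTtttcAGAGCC
Stem-loop of 7 members, each of them H4: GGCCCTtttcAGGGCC
Stem-loop of 6 members (1 H1, 2 H2B and 3 H3): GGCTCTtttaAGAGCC
The H4 genes thus differed from the other classes in the stem itself, and the first and last forms differ only in the loop.

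The promoters are shown for 1 member of each class because 35 of 55 members tested fell together in MN1_KO against aged_KO, as described below. RefSeq promoters of GRCm38.p6, 250 bases before to 50 bases after the transcription start, were matched for 60 of the 69 members. Motifs were searched on both strands as exact letters. CCAAT, the box bound by NF-Y, was found in 85.0% of the 60 members' promoters and in 37.41% of all 32851 promoters of this length. It was present in every matched H1, H2A, H2B and H3 promoter and in 3 of 12 H4 promoters. TATAAA was found in 56.67% of the members and 13.62% of all promoters. The octamer ATTTGCAT, known from H2B promoters, was found in 21.67% of the members, namely in 7 of 17 H2A and 6 of 16 H2B promoters, and in 1.74% of all promoters. AAACACA, known from H1 promoters, was found in 4 of 5 H1 promoters, 13.33% of the members and 7.18% of all promoters. A match is a string of letters and was not tested as a binding site. None of these 4 motifs contains another. The sequences run 5′ to 3′ on the strand of the gene, with every match of a motif or its reverse complement in capitals. Hist1h1c lies on the plus strand at chr13:23738557-23738856, Hist2h2aa1 on the plus strand at chr3:96245247-96245546, Hist1h2bg on the plus strand at chr13:23571150-23571449, Hist1h3g on the plus strand at chr13:23535168-23535467, and Hist1h4i on the minus strand at chr13:22041313-22041612.
Hist1h1c: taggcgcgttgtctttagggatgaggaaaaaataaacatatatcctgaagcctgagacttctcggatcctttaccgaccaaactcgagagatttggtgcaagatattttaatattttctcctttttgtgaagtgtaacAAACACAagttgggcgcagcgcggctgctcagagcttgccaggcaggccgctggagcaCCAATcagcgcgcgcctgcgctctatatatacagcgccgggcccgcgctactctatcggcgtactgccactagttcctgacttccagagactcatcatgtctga
Hist2h2aa1: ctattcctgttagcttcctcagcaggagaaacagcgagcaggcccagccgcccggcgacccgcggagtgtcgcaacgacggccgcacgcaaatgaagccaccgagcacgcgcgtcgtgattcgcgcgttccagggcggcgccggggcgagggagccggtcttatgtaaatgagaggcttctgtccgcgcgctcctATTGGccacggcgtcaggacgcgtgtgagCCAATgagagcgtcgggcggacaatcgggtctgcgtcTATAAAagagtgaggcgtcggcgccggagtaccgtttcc
Hist1h2bg: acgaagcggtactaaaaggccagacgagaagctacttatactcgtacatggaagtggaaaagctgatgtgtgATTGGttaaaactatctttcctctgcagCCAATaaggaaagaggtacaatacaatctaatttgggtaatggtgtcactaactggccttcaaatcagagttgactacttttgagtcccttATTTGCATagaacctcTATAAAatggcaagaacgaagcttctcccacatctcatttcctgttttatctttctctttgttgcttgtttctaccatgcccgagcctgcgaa
Hist1h3g: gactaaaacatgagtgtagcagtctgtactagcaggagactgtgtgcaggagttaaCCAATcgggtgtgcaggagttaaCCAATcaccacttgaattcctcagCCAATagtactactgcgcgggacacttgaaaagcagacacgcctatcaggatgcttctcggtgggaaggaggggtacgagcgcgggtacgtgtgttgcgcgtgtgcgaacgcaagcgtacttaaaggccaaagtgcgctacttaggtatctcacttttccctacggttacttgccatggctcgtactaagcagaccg
Hist1h4i: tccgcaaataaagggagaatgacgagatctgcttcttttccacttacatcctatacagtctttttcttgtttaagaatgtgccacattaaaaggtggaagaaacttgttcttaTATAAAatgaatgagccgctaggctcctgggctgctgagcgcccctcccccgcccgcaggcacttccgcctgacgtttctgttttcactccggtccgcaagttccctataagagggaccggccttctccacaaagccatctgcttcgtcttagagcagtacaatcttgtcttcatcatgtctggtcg
In these windows the H2B gene carries the octamer just before a TATAAA, and the H3 gene carries CCAAT in 3 places. The H1 gene carries the H1 motif upstream of its CCAAT, and the H4 gene has no CCAAT.

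The Hist1 cluster, on chromosome 13 from 21715763 to 23934851, held 54 of the 55 Hist1 genes. The pseudogene Hist1h2al lies outside it. The Hist2 cluster lies on chromosome 3 from 96219865 to 96270132, the Hist3 cluster on chromosome 11 from 58948920 to 58956830, and Hist4h4 on chromosome 6 from 136801553 to 136804415. Members resemble each other closely, which limits how reads can be shared out among them. Of the coding members, 42 had a coding sequence at least 97% identical to another member of the same length, and 8 were identical to another member. Accordingly 77.78% of the nonzero expected counts of members were not whole numbers, against 9.49% for all other genes. Hist1h2bq and Hist1h2br, with identical coding sequences, carried equal values in every library and are 1 measurement. Another annotated gene overlapped 25 members, 7 of them on the same strand, among them Hist2h2aa1 (Gm20634) and Hist3h2a (Trim17). Values of single members within such groups are therefore uncertain, and sums over classes are less affected.

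The libraries held 16544407 to 28409046 counts, of which 1502 to 3920 were histone counts. Hopx was at 14.2, 33.6 and 15.3 CPM (counts scaled to the library total) in aged_WT, at 0, 0 and 0.121 CPM in aged_KO, at 27.9, 14.1 and 25.6 CPM in MN1_WT, and at 3.50, 3.51 and 2.92 CPM in MN1_KO. Mn1 went against the label in 2 libraries: it was at 0.395, 36.4 and 0.160 CPM in MN1_WT replicates 2, 3 and 4, at 47.3, 46.3 and 22.1 CPM in MN1_KO, and at 0.0704 to 1.18 CPM in the aged libraries. Counts of calls and summed levels that rest on the libraries labelled MN1_WT are given with and without replicates 2 and 4. The summed Y-linked transcripts Ddx3y, Kdm5d, Uty and Eif2s3y reached at most 0.152 CPM in the aged libraries, 241, 81.8 and 229 CPM in MN1_WT and 14.1, 21.6 and 8.05 CPM in MN1_KO. Xist, the RNA that silences an X chromosome, was at 435 to 823 CPM in the aged libraries, 18.1, 4001 and 2.40 CPM in MN1_WT and 4937, 3919 and 585 CPM in MN1_KO. Of the marrow cell types, mature neutrophil markers summed to 23717 to 127236 CPM per library.

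Histone transcripts were scarce and uneven. The median member stood at 0.655 CPM, 21 members had a mean of at least 1 CPM over the 12 libraries, 5 had at least 5 CPM, and 48 stayed under 1 CPM. Per length, in TPM (transcript abundance scaled for length and library), the highest member was Hist2h2aa1, a core H2A gene of the Hist2 cluster, at a mean of 58.8 TPM. The linker histone gene Hist1h1c followed at 49.0 TPM, the H2B gene Hist1h2bc at 41.4 TPM and the H4 gene Hist1h4i at 41.1 TPM. Next came Hist1h2bg at 14.6 TPM, Hist3h2a at 12.5 TPM and Hist1h4m at 11.6 TPM, whereas the median over members was 2.36 TPM. The 6 members with the highest mean CPM held 51.8 to 75.7% of all histone CPM of a library. Hist1h2aa, an H2A gene known from the testis, and Hist1h4n were at 0 counts in every library, which allows up to 0.106 to 0.181 CPM depending on the library. The other testis genes were near 0 too: Hist1h1t had at most 0.108 CPM and Hist1h2ba at most 0.042 CPM.

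Members with a polyadenylation signal near the annotated transcript end differed in level among themselves. AATAAA ended 10 to 40 bases before the transcript end in 12 members, with a median of 2.90 TPM, against 2.36 TPM in the other 55 coding members. The 55 include the 15 whose annotated transcripts ended under 20 bases after the stop codon, where no such AATAAA could be found. They also include Hist1h4j and Hist4h4, whose last AATAAA ended 5 and 3 bases before the transcript end. Of the 12, the 9 that also had the stem-loop had a median of 1.49 TPM. The 3 without it were Hist2h2be, at 5.29 TPM, and the pair Hist1h2bq and Hist1h2br, 1 measurement at 6.995 TPM. The 12 included Hist1h1c, Hist2h2be, Hist3h2a and Hist3h2ba. Hist2h2aa1, Hist1h4i and Hist1h2bg, all among the highest, had the stem-loop and no such AATAAA. Hist1h2bc, at 41.4 TPM and described as polyadenylated, had neither, its last AATAAA being 441 bases before the annotated end.

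The summed level of the 69 genes separated the aged from the MN1 libraries. It was 169, 182 and 193 CPM in aged_WT and 139.6, 138 and 199.7 CPM in aged_KO. It was 115, 87.6 and 104 CPM in MN1_WT and 77.4, 72.2 and 113 CPM in MN1_KO. Each MN1 library lay below each aged library, whereas wild type and knockout overlapped in CPM in both experiments. In summed TPM the MN1 experiment showed no such overlap, with 373, 315 and 331 TPM in MN1_WT and 251, 208 and 277 TPM in MN1_KO. In aged_KO against aged_WT the summed CPM was 12.3% lower, a log2 ratio of -0.19 that came to -0.02 with TMM scaling. Group means were 181.4 ± 11.9, 159.1 ± 35.2, 102.3 ± 13.9 and 87.7 ± 22.5 CPM (SD, n = 3 each) for aged_WT, aged_KO, MN1_WT and MN1_KO. MN1_WT replicates 2 and 4, which had little Mn1, also lay below the lowest aged library. In bulk marrow, fewer cells of a type and less RNA per cell cannot be told apart.

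**Figure D1:**
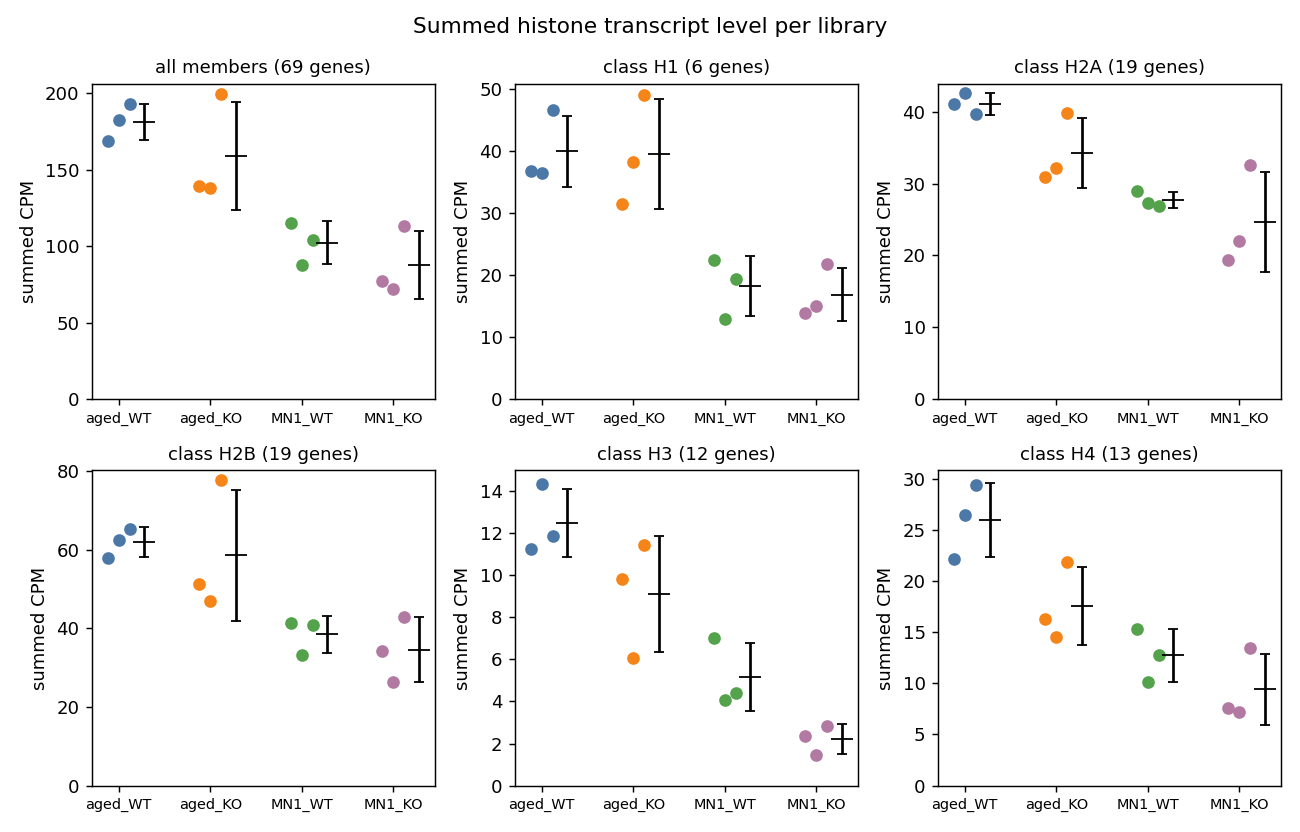
Summed CPM (y axis) of all 69 histone genes and of the 5 classes in each library, by group; points are libraries and bars give the mean and SD of 3 libraries. In the panel of all members each MN1 library lies below each aged library, and the H3 panel goes from a mean of 12.5 CPM in aged_WT to 2.21 CPM in MN1_KO.

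The classes and clusters did not move in equal proportion. H3 transcripts summed to 11.2, 14.3 and 11.9 CPM in aged_WT, 9.83, 6.06 and 11.4 CPM in aged_KO, 7.00, 4.07 and 4.41 CPM in MN1_WT and 2.35, 1.44 and 2.83 CPM in MN1_KO. The MN1_KO libraries were the 3 lowest of the 12 for H3, and H3 made up 3.03, 2.00 and 2.49% of their histone CPM against 4.22 to 7.86% in the other 9 libraries. The Hist1 cluster stood at a mean of 126 CPM in aged_KO and 55.1 CPM in MN1_KO, while the Hist2 cluster was at 29.9 and 29.1 CPM in those groups. Most of the Hist2 sum came from Hist2h2aa1, at means of 19.6 and 17.7 CPM, and Hist2h2be, at 6.21 and 10.1 CPM. Of 8 Hist2 members tested between those groups, 7 had a negative fold change. The median log2 fold change was -1.98 in Hist2 as in Hist1, against 0.08 for all genes tested. The Hist2 share of histone CPM was 16.3 to 22.4% in the aged libraries and 22.4 and 22.2% in MN1_WT replicates 2 and 4. It was 32.8% in MN1_WT replicate 3 and 36.0, 37.5 and 28.4% in MN1_KO, so the 4 libraries with high Mn1 had the 4 highest Hist2 shares. No test was made of these sums.

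The 18-week groups show how these genes stood in marrow that lacked Hopx and was without MN1. Few members passed, and those that did were lower in the knockout: of 52 tested, 5 fell and 0 rose (edgeR quasi-likelihood test, adjusted over all genes, threshold 0.05), while 31.4% of all genes tested passed and 15.8% passed as lower. The members' share was 9.62%. The median log2 fold change was -0.28 for the members and -0.02 for all genes tested. The linker histones and H4 had 0 members past the threshold, with 0 and 2 at an unadjusted p under 0.05.

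Both measured protein-coding genes of the Hist3 cluster were among the 5. Hist3h2ba, a core H2B gene, was at 1.78, 1.35 and 1.52 CPM in aged_WT and at 0.494, 0.282 and 0.544 CPM in aged_KO, a log2 fold change of -1.68 ± 0.35 (SE, edgeR adjusted p = 0.00739). Its neighbour Hist3h2a, an H2A gene, was at 3.71, 4.65 and 5.58 CPM against 2.54, 2.43 and 2.42 CPM, and fell by 0.73 on the log2 scale (SE 0.22, edgeR adjusted p = 0.0321). For both genes all knockout libraries lay below all wild-type libraries. The single Hist4 gene, Hist4h4, was at 0.323, 0.698 and 0.659 CPM in aged_WT and at 0.275, 0.211 and 0.0604 CPM in aged_KO, too low to be tested.

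The other 3 lay in Hist1 and Hist2. Hist2h2be, an H2B gene described elsewhere as polyadenylated, was at 10.4, 10.9 and 12.2 CPM in aged_WT and 8.12, 5.60 and 4.90 CPM in aged_KO (log2 fold change -0.67 ± 0.18, edgeR adjusted p = 0.0225). The H2A gene Hist1h2ah was at 0.950, 0.699 and 0.688 CPM against 0.206, 0.241 and 0.250 CPM (-1.53 ± 0.39, edgeR adjusted p = 0.0174). The H3 gene Hist1h3h was at 1.24, 0.965 and 0.848 CPM against 0.350, 0.434 and 0.452 CPM (-1.18 ± 0.36, edgeR adjusted p = 0.0327). The groups did not overlap in any of these 3 genes.

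**Figure D2:**
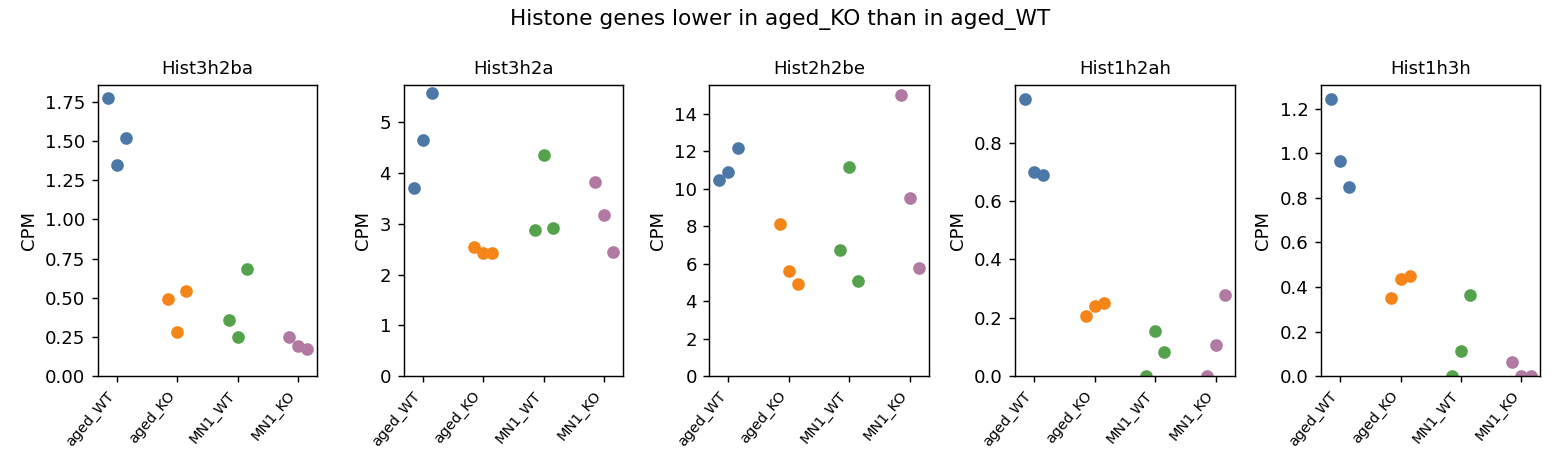
CPM (y axis, linear, from 0) of the 5 histone genes that passed in aged_KO against aged_WT, in all 12 libraries by group; points are libraries. The aged_KO points lie below the aged_WT points in each panel, and Hist2h2be in MN1_KO stands at 15.01, 9.52 and 5.74 CPM.

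The 3 members with the highest mean CPM did not pass. Hist1h1c was at 26.7, 23.5 and 34.4 CPM in aged_WT and 24.5, 31.7 and 38.4 CPM in aged_KO (log2 fold change 0.35 ± 0.20, edgeR adjusted p = 0.202). Hist2h2aa1 was at 22.0, 21.5 and 19.3 against 15.1, 20.7 and 23.1 CPM (0.09 ± 0.18, edgeR adjusted p = 0.728). Hist1h2bc was at 24.8, 22.9 and 26.9 against 17.0, 18.9 and 30.8 CPM (0.02 ± 0.21, edgeR adjusted p = 0.958). The groups overlapped in all 3. Hist1h4i, the next by mean CPM, was at 12.3, 12.05 and 14.5 against 9.01, 7.74 and 10.8 CPM, with no overlap, and missed the threshold (-0.32 ± 0.15, edgeR adjusted p = 0.138). The largest positive value was that of the H2B gene Hist1h2bg, at 1.67, 5.95 and 5.78 against 7.27, 5.94 and 9.59 CPM (0.93 ± 0.41, edgeR adjusted p = 0.124). In H2B, 10 of 14 tested members had a positive fold change, with the pair Hist1h2bq and Hist1h2br counted as 2. In H3, 10 of 11 and in H4, 8 of 9 had a negative one, against 6690 of 12771 for all genes tested. B cell precursor genes summed to 530 to 1069 CPM in aged_WT and 33.6 to 45.4 CPM in aged_KO, and 13 of 13 passed the threshold as lower in the knockout. Of the erythroid genes 8 of 11 passed as lower. Of the granulocyte progenitor genes 8 of 9 passed as higher, and of the mature neutrophil genes 7 of 11. The part of these cell types in the histone values was not tested. Of the 5 calls, 0 remained when the spread was estimated over all 12 libraries, and 1 to 4 remained when 1 library was left out.

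Within the MN1 experiment the same contrast gave no call. Hopx itself did not pass in this fit (log2 fold change -2.84 ± 0.38, edgeR adjusted p = 0.129). The summed Y-linked transcripts given above also separated MN1_WT from MN1_KO, and their part in this contrast was not tested. Of 34 members tested, 0 passed, as for all genes (0% of 13525), and 4 members had an unadjusted p under 0.05. DESeq2 and limma-trend also called 0 members. Of the 34, 29 had a negative fold change, with a median of -0.80 against 0.03 for all genes. Without MN1_WT replicates 2 and 4, 0 of 35 members passed and the median was -0.16. The members with the smallest p were the H2A gene Hist1h2ad, at 1.23, 0.916 and 1.31 CPM in MN1_WT and 0.385, 0.201 and 0.320 CPM in MN1_KO (log2 fold change -2.02 ± 0.49, edgeR adjusted p = 0.245), and the H3 gene Hist1h3g, at 0.924, 0.498 and 0.484 against 0.253, 0.0962 and 0.270 CPM (-1.64 ± 0.60, edgeR adjusted p = 0.425). In both genes the 2 groups did not overlap. Hist1h1c, Hist2h2aa1, Hist1h2bc and Hist2h2be had positive values of 0.12 ± 0.41, 0.20 ± 0.37, 0.13 ± 0.42 and 0.36 ± 0.39. In summed TPM the group means were 339.8 ± 29.8 in MN1_WT and 245.4 ± 34.7 in MN1_KO (SD, n = 3 each), and the groups did not overlap. The summed CPM was 14.31% lower in MN1_KO, a log2 ratio of -0.22, and this ratio was 0.002 against MN1_WT replicate 3 alone. In MN1_WT that replicate also stood apart in cell type genes, with 3617 CPM of stem and progenitor genes against 279.3 and 191 CPM in replicates 2 and 4, and the part of this in the comparison was not tested.

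**Figure D3:**
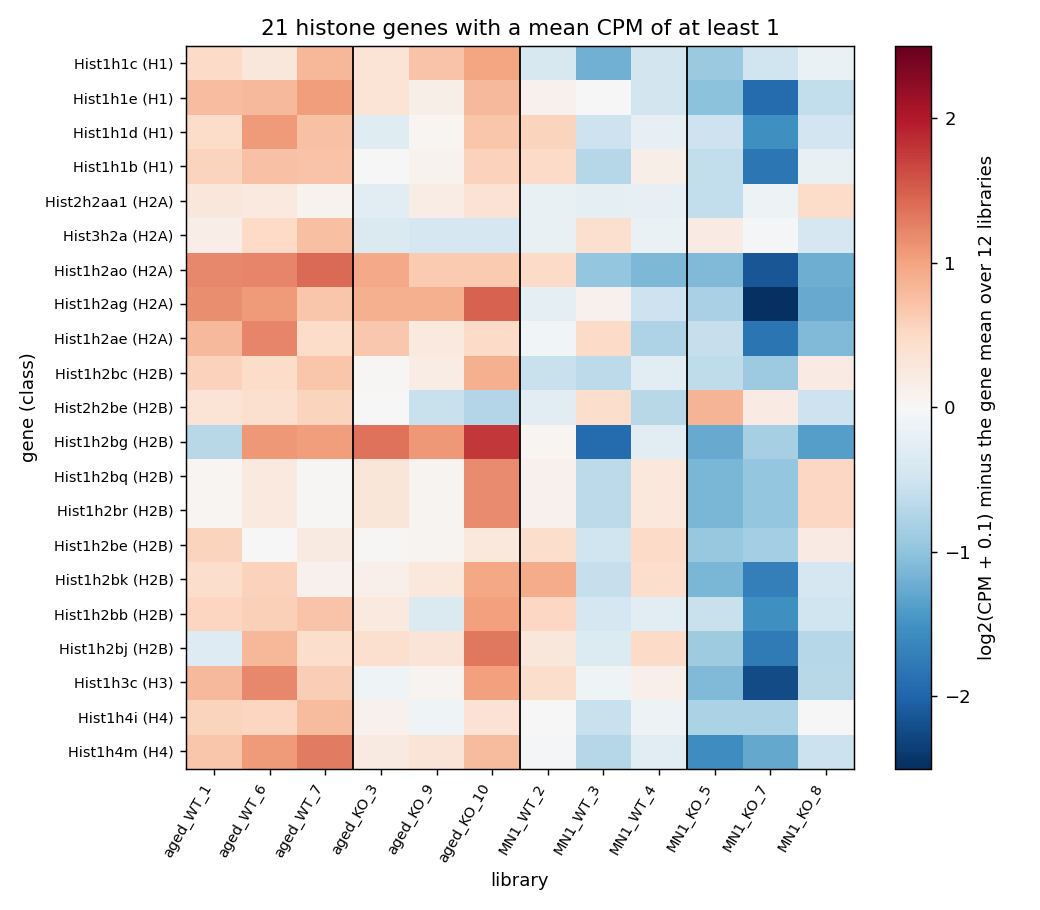
The 21 histone genes with a mean of at least 1 CPM (rows, by class) in the 12 libraries (columns); colour gives log2(CPM + 0.1) minus the gene's mean over the libraries. Most rows turn from red in the aged libraries to blue in the MN1_KO libraries, while Hist2h2aa1, Hist2h2be and Hist3h2a vary little or in another order.

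Setting the MN1 wild-type libraries against the aged wild-type libraries asks how histone transcripts stand in marrow labelled MN1. In this contrast and the next, labelled MN1 status, labelled age and deposited table coincide and cannot be told apart. The summed Y-linked transcripts given above also separate the 2 experiments, and their part in these contrasts was not tested. Both contrasts come from 1 fit of all 12 libraries. Levels were mostly lower: 52 of 55 members tested had a negative fold change, with a median of -1.17 against 0.06 for all genes, but 5 passed, 4 lower and 1 higher. Of all genes 3.58% passed and 2.58% as lower, and 9.09% of the members passed. The 4 that fell were Hist3h2ba (-1.96 ± 0.45, edgeR adjusted p = 0.0399), the H4 gene Hist2h4 (-2.18 ± 0.52, edgeR adjusted p = 0.0446), Hist1h2an (-2.17 ± 0.48, edgeR adjusted p = 0.0454) and Hist1h3f (-1.80 ± 0.44, edgeR adjusted p = 0.0492). Hist3h2ba was at 0.356, 0.249 and 0.681 CPM in MN1_WT. Hist1h3f, an H3 gene, was at 0.975, 0.893 and 0.886 CPM in aged_WT and at 0.220, 0.255 and 0.344 CPM in MN1_WT.

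The summed level fell short of that of aged_WT by 43.57%, and the 2 groups did not overlap. Its log2 ratio was -0.83, and -1.05 with MN1_WT replicate 3 as the only MN1_WT library. Hist1h1c was at 14.5, 8.34 and 13.9 CPM in MN1_WT, below each aged_WT library, and missed the threshold (-1.33 ± 0.33, edgeR adjusted p = 0.0519). Hist1h2bc, at 11.3, 10.5 and 13.7 CPM, did so too (-1.21 ± 0.35, edgeR adjusted p = 0.0766). The count of 5 changed with the tool and the libraries: DESeq2 called 18 members and limma-trend 10, leaving out any of the 6 wild-type libraries left 0 to 2, and leaving out MN1_WT replicates 2 and 4 together gave 11. Of the 5, Hist3h2ba was the 1 that passed in that last fit (-2.90, edgeR adjusted p = 0.0157).

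The same contrast was made between the knockout groups. In MN1_KO against aged_KO 35 of 55 members tested fell and 1 rose (edgeR), while 37.9% of all genes passed and 16.8% passed as lower. The members' share past the threshold was 65.5%. The median log2 fold change was -1.96 for the members and 0.08 for all genes, and it stayed at -1.96 with genes at 0 counts in a group set to their bound. By class, 3 of 5 H1, 10 of 14 H2A, 9 of 14 H2B, 9 of 12 H3 and 4 of 10 H4 members tested fell, and the median was lowest in H3, at -2.64. The summed level was 44.86% lower, a log2 ratio of -0.86, and -1.20 with TMM scaling. Leaving out MN1_KO replicate 5 or 7 or aged_KO replicate 10 reduced the 36 calls to 23, 21 and 22, and a fit of the 6 knockout libraries alone to 20. The sum of the B cell precursor genes was lower in each other group than in aged_WT, with 81.3 to 444 CPM in MN1_WT. It was 33.6 to 45.4 CPM in aged_KO and 45.5 to 71.4 CPM in MN1_KO. Stem and progenitor genes summed to 129 to 145 CPM and 849 to 3397 CPM, and 10 of 10 passed the threshold as higher in MN1_KO. Of the mature neutrophil genes 7 of 11 passed as lower. The part of these cell types in the histone result was not tested.

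Among the H3 genes, Hist1h3g was at 1.13, 1.13 and 1.47 CPM in aged_KO and at 0.253, 0.0962 and 0.270 CPM in MN1_KO (log2 fold change -2.94 ± 0.51, edgeR adjusted p = 0.00311). Hist1h3f fell by 2.63 on the log2 scale (SE 0.50, edgeR adjusted p = 0.00464) and Hist1h3i by 3.24 (SE 0.72, edgeR adjusted p = 0.00800). The largest fall among genes with counts in both groups was that of Hist1h3h, at 0.350, 0.434 and 0.452 CPM against 0.0629, 0 and 0 CPM (-3.90 ± 1.10, edgeR adjusted p = 0.0201). All MN1_KO libraries lay below all aged_KO libraries for these 4 genes.

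Among the H2A and H2B genes, Hist1h2an was at 0.471, 0.527 and 0.635 CPM in aged_KO and at 0 in the 3 MN1_KO libraries, at least 12.2-fold lower with a floor of 3 counts over the group (34.0 against 0 counts, edgeR adjusted p = 0.00151). Hist1h2ag was at 1.95, 1.96 and 3.01 CPM against 0.532, 0 and 0.366 CPM (-3.31 ± 0.71, edgeR adjusted p = 0.00722). Hist1h2bg was at 7.27, 5.94 and 9.59 CPM against 1.09, 1.499 and 1.00 CPM (-3.03 ± 0.60, edgeR adjusted p = 0.00531). These groups did not overlap in the 3 genes, and Hist1h2bg was the sixth histone gene by mean CPM. Hist1h2ak, Hist1h2ao, Hist1h2ae and Hist1h2bj fell by 2.70, 2.74, 2.17 and 2.37 on the log2 scale.

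Linker histone genes fell with 3 members: Hist1h1e (-1.98 ± 0.40, edgeR adjusted p = 0.00570), Hist1h1c (-1.57 ± 0.33, edgeR adjusted p = 0.00687) and Hist1h1d (-1.40 ± 0.47, edgeR adjusted p = 0.0388). Hist1h1c was at 9.99, 13.5 and 17.1 CPM in MN1_KO, each below the lowest aged_KO library. In H4, Hist1h4m was at 2.503, 2.72 and 3.79 CPM in aged_KO and 0.663, 0.825 and 1.45 CPM in MN1_KO (-1.96 ± 0.42, edgeR adjusted p = 0.00721). Hist1h4i was at 9.01, 7.74 and 10.8 against 4.75, 4.79 and 8.24 CPM (-0.96 ± 0.31, edgeR adjusted p = 0.0339), with groups that overlapped.

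The other 19 members tested did not pass, among them Hist2h2aa1, Hist2h2be and Hist3h2a. Hist2h2aa1 was at 15.1, 20.7 and 23.1 CPM in aged_KO and 11.7, 16.6 and 24.9 CPM in MN1_KO (-0.48 ± 0.31, edgeR adjusted p = 0.225). Hist2h2be was at 8.12, 5.60 and 4.90 against 15.01, 9.52 and 5.74 CPM (0.30 ± 0.31, edgeR adjusted p = 0.454). Hist3h2a was at 2.54, 2.43 and 2.42 against 3.83, 3.17 and 2.44 CPM (-0.03 ± 0.25, edgeR adjusted p = 0.929). The groups overlapped in all 3. Other members of their clusters did pass, among them Hist2h4 (-2.34 ± 0.57, edgeR adjusted p = 0.0115) and Hist3h2ba (-1.42 ± 0.50, edgeR adjusted p = 0.0441). By cluster, 4 of 8 Hist2, 1 of 2 Hist3 and 30 of 45 Hist1 members tested passed as lower, against 16.8% of all genes.

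Hist1h2af, a core H2A gene, moved the other way. It was at 0.0693 to 0.252 CPM in aged_WT and 0.182 to 0.331 CPM in aged_KO, and at 2.38, 1.49 and 2.64 CPM in MN1_WT and 0.654, 0.648 and 2.41 CPM in MN1_KO. Each MN1 library lay above each aged library. The log2 fold change was 3.65 ± 0.76 in MN1_WT against aged_WT (edgeR adjusted p = 0.0288) and 2.00 ± 0.71 in MN1_KO against aged_KO (edgeR adjusted p = 0.0464). No histone gene rose in the knockout contrast with size factors by relative log expression, with limma-trend or without the filter on low counts, and leaving out any 1 wild-type library other than MN1_WT replicate 3 ended the wild-type call (edgeR adjusted p = 0.0600 to 0.123). Without MN1_WT replicates 2 and 4 together its log2 fold change was 2.94 (edgeR adjusted p = 0.0613). Its coding sequence is 98.7% identical to that of Hist1h2ad, and Gm44297 overlaps it on the other strand.

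**Figure D4:**
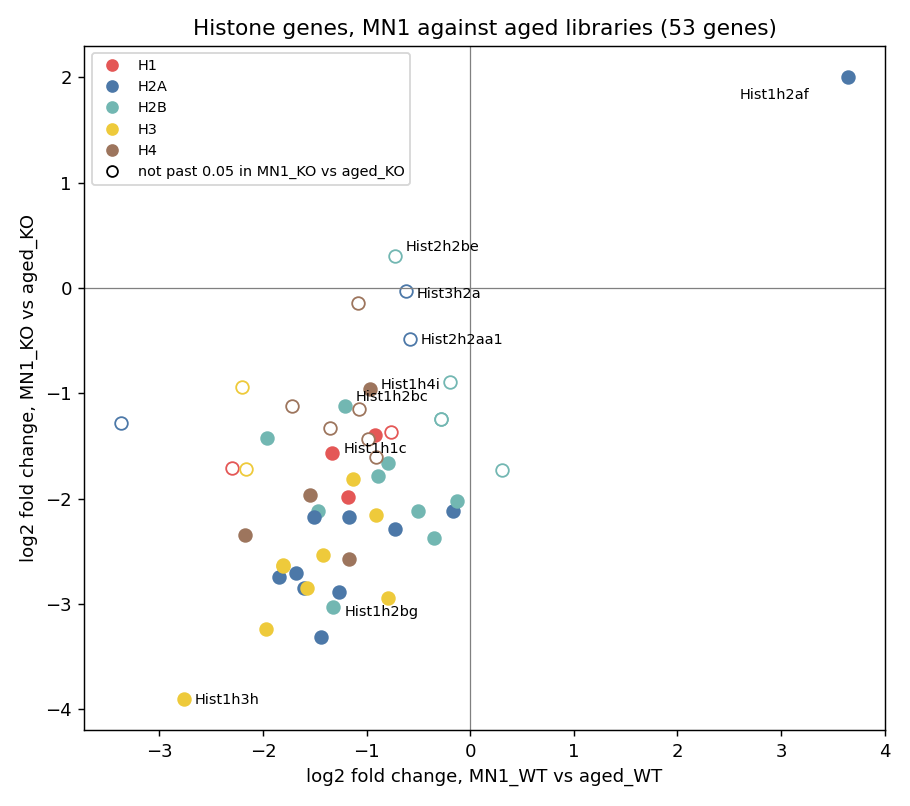
log2 fold change in MN1_WT against aged_WT (x axis) and in MN1_KO against aged_KO (y axis) for 53 histone genes tested in both, coloured by class; filled points passed in the knockout contrast, and 2 genes at 0 counts in a group are left out. Most points lie below 0 on both axes, Hist1h2af lies above 0 on both, and Hist2h2be is near 0.30 on the y axis. Both axes come from 1 fit but share no library.

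The difference between the knockout effects of the 2 experiments was tested in the fit of all 12 libraries. Of 55 members 1 passed, 1.82% against 3.32% of all genes. It was Hist1h2an, with a difference of -4.66 ± 1.02 (MN1 minus aged, edgeR adjusted p = 0.0463). This gene went from 1.35, 0.958 and 1.13 CPM in aged_WT to 0.471, 0.527 and 0.635 CPM in aged_KO, and from 0.134, 0.461 and 0.271 CPM in MN1_WT to 0 in MN1_KO. The fitted difference rests on a group at 0 counts and is not a bound. Without MN1_WT replicates 2 and 4, 0 of 58 members passed, and the value for Hist1h2an was -5.20 (edgeR adjusted p = 0.131). Hist1h3g did not pass (-2.15 ± 0.67, edgeR adjusted p = 0.1).

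The genes that make, process and package histone transcripts were followed for comparison. Of 19 measured genes of histone transcription and 3′ processing, 3 fell and 1 rose in MN1_KO against aged_KO. Of all genes tested, 37.9% passed in this contrast and 31.4% in aged_KO against aged_WT. Slbp, the stem-loop binding protein, was at 133, 134 and 131 CPM in aged_KO and 105, 92.3 and 116 CPM in MN1_KO (log2 fold change -0.71 ± 0.21, edgeR adjusted p = 0.0228). Eri1, the exonuclease that trims and degrades histone mRNA, fell by 0.62 and the cap-binding gene Ncbp1 by 0.43, while its partner Ncbp2 rose by 0.59. Npat did not pass (0.29 ± 0.31, edgeR adjusted p = 0.463). In the aged experiment only Casp8ap2, a component of histone locus bodies, passed in this list (0.31 ± 0.10, edgeR adjusted p = 0.0358).

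Histone variant genes that were not members went in both directions. Of 11 measured, 4 rose and 1 fell in MN1_KO against aged_KO, where 37.9% of all genes tested passed. H2afz, the H2A.Z variant, was at 675, 773 and 907 CPM in aged_KO and 2109, 1877 and 4380 CPM in MN1_KO (1.504 ± 0.34, edgeR adjusted p = 0.00872). The linker variants H1f0 and H1fx rose by 1.24 and 4.20, H2afy2 rose by 6.62, and H3f3a, an H3.3 gene, fell by 0.77 on the log2 scale. In aged_KO against aged_WT, 2 of the 11 fell, H1fx by 2.38 and H2afv by 0.45, while 15.8% of all genes tested passed as lower. Of 22 histone chaperones and carriers, 3 rose and 4 fell in MN1_KO against aged_KO, again beside 37.9% of all genes tested. Ipo4 and Daxx rose by 1.68 and 0.47, and Asf1b and the centromeric chaperone Hjurp fell by 1.32 and 1.47.

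DNA replication genes marked the S phase for the comparison with histones. Of 30 tested, 13 fell and 0 rose in MN1_KO against aged_KO, with a median of -0.61. In aged_KO against aged_WT 3 fell, and 0 passed in the other 2 group contrasts. Of all genes tested, 16.8% passed as lower in MN1_KO against aged_KO and 15.8% in aged_KO against aged_WT. The ribonucleotide reductase gene Rrm2 fell by 1.38, the cyclin gene Ccne2 by 1.58 and the sliding clamp gene Pcna by 0.81 on the log2 scale in MN1_KO. Per 100 CPM of the 30 replication genes, the aged libraries held 4.13 to 5.64 histone CPM and the MN1 libraries 2.48 to 3.84. MN1_WT replicates 2 and 4 held 4096 and 3857 CPM of replication genes, within the aged_WT range of 3547 to 4474 CPM, with 2.81 and 2.71 histone CPM per 100. The fall in histone transcripts was thus larger than that of the replication genes in these libraries, as a description without a test.

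**Figure D5:**
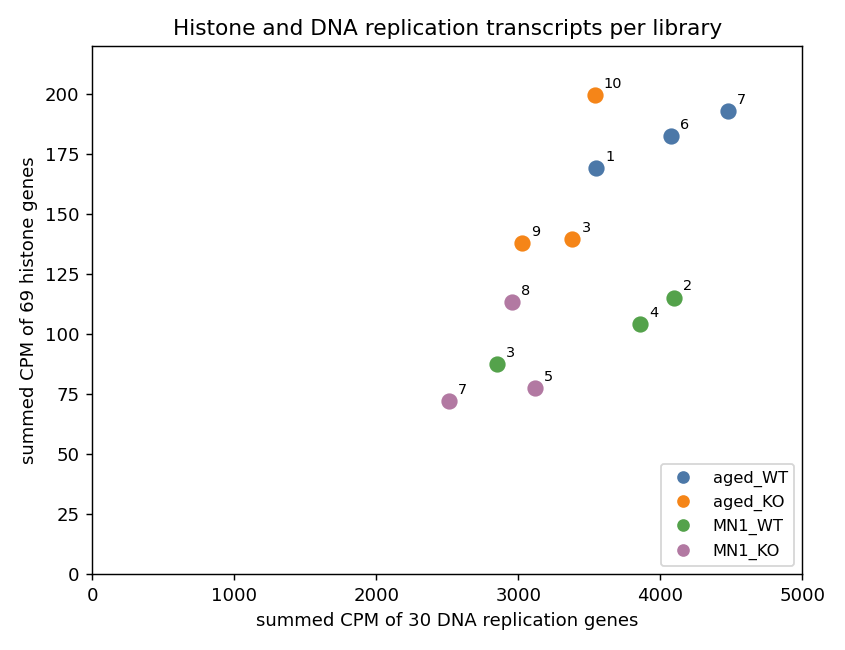
Summed CPM of the 69 histone genes (y axis) against summed CPM of 30 DNA replication genes (x axis); each point is a library, coloured by group and labelled with its replicate number. The 6 MN1 points lie below the 6 aged points on the y axis. MN1_WT replicates 2 and 4 and MN1_KO replicate 5 lie within the aged range on the x axis, and the other 3 MN1 libraries lie to the left of it.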

How the data were processed

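Expected counts per gene symbol were deposited by the authors in 1 table for the aged and 1 for the MN1 libraries, made with RSEM 1.2.28 and Bowtie2 2.3.4.3 on mm10, per the submitters' processing notes. The annotation, the strand setting and the roles of these tools beyond that were not given in the sources used here. Deposited TPM values, made by the authors, set the order of genes by level, and deposited FPKM values of the authors were not used. Library protocols are per the labels.

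CPM were computed from the expected counts and each library's total. Rounded counts passed through filterByExpr and TMM scaling before the test in edgeR 4.0.16 in R 4.3.3 (quasi-likelihood F test, robust), with Benjamini-Hochberg adjustment over all genes tested and a threshold of 0.05. SE is the fold change divided by the square root of F. Knockout effects used the 6 libraries of a table, and contrasts across tables used all 12, which also assumes that both tables were made alike. DESeq2 1.42.0 and limma 3.58.1 (limma-trend, prior count 2) were alternatives, beside other scaling, filters and libraries. The fit was tested on simulated data for aged_KO against aged_WT only, with the same dispersion for every gene. The fits that include MN1 libraries were not tested in this way. Replicates differed by more than sampling noise (chi-square per degree of freedom 16.9 to 380). The members and lists were chosen with earlier results of these data known. Named genes were, per comparison, up to 12 members past the threshold with the smallest adjusted p and the 3 with the largest fold change each way, the 3 highest of each class by TPM, testis genes, genes known as polyadenylated, the Hist3 and Hist4 genes, and up to 4 of each list.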

Additional observations from a re-analysis of the deposited data

Results flagged for a closer look

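Hist1h2an had a knockout effect that differed between the experiments by a test of the difference itself, -4.66 on the log2 scale (MN1 minus aged, edgeR adjusted p = 0.0463). It fell in both experiments by group means, and MN1_KO held 0 counts in its 3 libraries against 21.3 in MN1_WT. The difference did not pass without the filter on low counts (edgeR adjusted p = 0.0556), with limma-trend (adjusted p = 0.248) or without any 1 library other than MN1_WT replicate 3 (edgeR adjusted p up to 0.118). Its coding sequence is 98.98% identical to that of Hist1h2ad, and the part of read assignment in this result was not tested.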

How the results depend on the processing

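No paired analysis was possible because the groups compared share fewer than 2 replicate numbers. For aged_KO against aged_WT, the 5 members past the threshold became 2 with the stricter filter (mean of at least 1 CPM, which tests fewer genes), 0 in the fit of all 12 libraries, and 1 to 7 when 1 library was left out. For MN1_KO against MN1_WT, the 0 became 1 in the fit of all 12 libraries, and 0 to 1 with a library left out (1 without MN1_WT replicate 3). For MN1_WT against aged_WT, the 5 became 18 with DESeq2, 10 with limma-trend, 1 without the filter, 0 with the stricter filter, 0 to 2 with a library left out, and 11 without MN1_WT replicates 2 and 4, an alternative chosen after seeing the data, in which the lone MN1_WT library is assumed to vary like the other groups. For MN1_KO against aged_KO, the 36 became 14 of 21 tested with the stricter filter, 20 in the fit of 6 libraries, and 21 to 41 with a library left out, while DESeq2 gave 41, limma-trend 39 and no filter 33. For the difference of the knockout effects, the 1 became 0 without the filter, with the stricter filter, with limma-trend and without MN1_WT replicates 2 and 4, and 0 to 6 with a library left out (6 without MN1_WT replicate 3). The log2 ratio of summed levels in MN1_WT against aged_WT was -0.54 from TPM and -1.05 without MN1_WT replicates 2 and 4. The cause of these changes was not tested, except where fewer genes or libraries entered. Signs were compared only for up to 12 members past the threshold per comparison and up to 4 such genes of each histone-related or replication list. None of these changed sign in these alternatives, and the other members were not checked for this. The log2 ratio of summed CPM in MN1_KO against MN1_WT went from -0.22 to 0.002 without MN1_WT replicates 2 and 4. In summed TPM each MN1_KO library lay below each MN1_WT library. The 12 members named first in MN1_KO against aged_KO passed in every alternative that tested them. With 1502 to 3920 histone counts per library, members under 1 CPM rest on few counts.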

Other observations

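Members at or near 0 in most libraries appeared in single ones. Hist2h3c1, an H3 gene, held 38.0 counts in aged_KO replicate 3, 23.4 in MN1_WT replicate 3 and 13.5 in MN1_WT replicate 4, and 0 in the other 9 libraries. Hist2h2aa2, whose coding sequence equals that of Hist2h2aa1, held 12.2 counts in aged_KO replicate 3 and 0 elsewhere. Gm20634 overlaps Hist2h3c1 and Hist2h2aa1 on the same strand.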
